A study of Arabidopsis thaliana with 8 samples.

Results

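Roots and shoots of Arabidopsis thaliana were compared in plants that received water only, so that the difference between the organs could be read without the volatile under study. The comparison set the 2 root water libraries against the 2 shoot water libraries, 4 of the 8 libraries in the series. Each deposited table, one for roots and one for shoots, listed the same 3691 genes. Of these, 3561 genes had a mean of at least 1 over the 4 water libraries and were tested.

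All plants were wild type, ecotype Col-0, grown in divided plates with a paper disc. The groups were root treated with water, root treated with 100 µM 2,5-dimethylpyrazine (2,5-D, a volatile pyrazine that microbes release), shoot treated with water and shoot treated with 2,5-D, with 2 libraries each. The labels give 24 hours of treatment and also 14 days of growth beside the disc, so the age at harvest and the time of contact are not settled by them. They do not say whether the libraries of a group came from separate plants, and the p-values below therefore speak only of variation among the libraries, part or all of which may be technical.

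A root takes up water and mineral ions, loads them into the xylem and seals its inner tissue with the Casparian strip, a lignin band in the endodermis, and with suberin. A green shoot fixes carbon: light-harvesting antenna proteins feed photosystems I and II in the chloroplast, Rubisco fixes carbon dioxide, and the chloroplast makes part of its proteins on ribosomes of its own. Sucrose made in leaves is loaded into the phloem and feeds the root. The organs also carry different sets of defence compounds and of the enzymes that make them.

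The deposited values had no named unit. Their low values fell on steps that scaled with gene length, and the value of 1 read in a gene of 1 effective kilobase came to 0.0602 and 0.0651 in the root water libraries and to 0.0592 and 0.0575 in the shoot water libraries. Between 85.4% and 87.5% of the low values used lay within 0.15 of a whole number of such steps. Both tables were thus read as levels per length. They were taken to be on one scale per library depth, which these steps alone cannot show. Total depth is unknown. The listed genes summed to 270236.8 and 252869.9 in root and to 271587.0 and 308223.0 in shoot. The root pair correlated across genes at r = 0.987 with 32 genes over 2-fold apart, and the shoot pair at r = 0.941 with 553 genes over 2-fold apart. Nearly every listed gene separated its 2,5-D from its water libraries in at least 1 organ, with 2 of 3691 exceptions, so the shares below are shares of a list picked for the treatment on these same libraries and not of the genome.

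The organ labels were checked first. All 32 shoot markers in the tables (photosystem, antenna and Rubisco small subunit genes) were lower in both root libraries than in both shoot libraries, and their values summed to 1251.64 and 1627.92 in root, against 53330.03 and 51354.76 in shoot. All 4 root markers (CASP1, CASP2, ESB1 and PER64 of the Casparian strip) were higher in both root libraries, with sums of 152.66 and 145.01 in root, against 3.63 and 4.47 in shoot. No marker of either kind went against its label. None of the shoot markers was at 0 in root and none of the root markers at 0 in shoot. In such bulk samples, fewer cells of a type and less RNA per cell cannot be told apart.

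Of the 3561 tested genes, 1923 (54.0%) differed between root and shoot at an adjusted p of 0.05, the threshold of every call below. The test was limma on log2(value + 1), with Benjamini-Hochberg adjustment over all tested genes. Of these, 1260 (35.4%) were higher in root and 663 (18.6%) were lower in root than in shoot. At a log2 difference of 1 or more, a doubling of value + 1, 887 (24.9%) were higher in root and 581 (16.3%) lower. Calls numbered 953 without the first root library and 965 without the second, against 2114 and 2213 without the first and the second shoot library. The root and shoot libraries did not overlap in 2871 genes (80.6%). The largest differences lay on the other side: 6 genes were higher in root by at least 6 on the log2 scale, and 22 were lower by as much.

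The median tested gene was 0.48 higher in root on the log2 scale. Once the libraries were scaled to equal medians, this shift was 0.11 and the calls were nearly even, with 782 higher in root and 774 lower. The share of calls that were higher in root was 65.5% on the deposited scale and 50.3% at equal medians. Small differences in one direction are therefore tied to the scale, and results that depend on it are given both ways. Differences are root minus shoot in log2(value + 1) ± SE with 2 libraries per organ, a scale on which changes at low values look smaller than they are. Genes described below outside the rule for named genes were picked from their list after their values were seen.

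**Figure D1:**
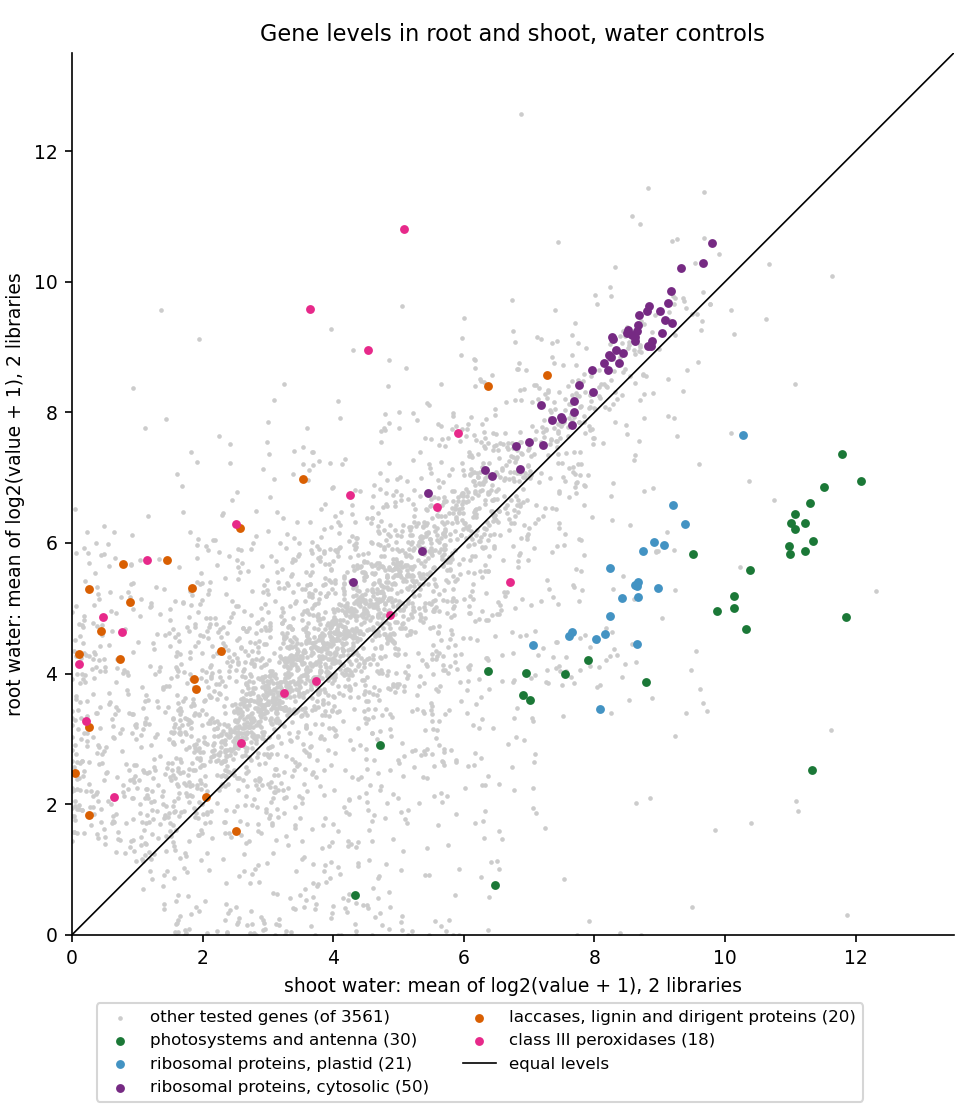
Each point is 1 tested gene, with its mean log2(value + 1) over the 2 root water libraries on the vertical axis and over the 2 shoot water libraries on the horizontal axis, and the line marks equal levels. The 30 photosystem and antenna genes and the 21 plastid ribosomal protein genes lie far below the line, the 50 cytosolic ribosomal protein genes lie just above it, and most laccase, dirigent and peroxidase genes lie well above it.

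The gene with the largest excess in root was BGLU22, a beta-glucosidase related to the root enzyme PYK10. Its deposited value was 850.19 and 669.2 in the root libraries, against 1.28 and 1.93 in the shoot libraries, a difference of 8.19 ± 0.25 (adjusted p = 0.000491). Its close relatives are similar in sequence and reads may have been shared among them. The lectin gene AT5G35940 followed, with 360.53 and 305.2 in root, against 1.04 and 0.81 in shoot (7.44 ± 0.19). The defensin-like gene AT4G22212 had 584.96 and 529.5 in root, against 1.31 and 5.41 in shoot. In all of these the organs were far apart and the 2 libraries of each organ lay close to each other relative to that gap. The rest of the 12 largest were CYP71A20, a cytochrome P450, the lipid-transfer family genes AT4G22610 and AT4G12545, the peroxidases AT2G38380 and AT3G32980, a methyltransferase (AT3G44870), a pectin methylesterase inhibitor family gene (AT5G62340), an extensin-like gene (AT1G26250) and PCK2, a phosphoenolpyruvate carboxykinase. Their differences lay between 5.72 and 6.64.

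The highest level among the listed genes in root belonged to AT4G33720, a gene of the secreted CAP family that includes PR1. It stood at 6697.56 and 5506.68 in root, against 97.06 and 140.29 in shoot (5.69 ± 0.24). OSM34, an osmotin, came second with 2811.6 and 2719.79 in root, against 523.13 and 387.07 in shoot. The knottin gene AT2G43535, the phosphate starvation gene AT5G03545 and the extensin EXT3 were next. All of them were also well measured in shoot, and their differences were smaller, between 1.70 and 2.62.

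**Figure D2:**
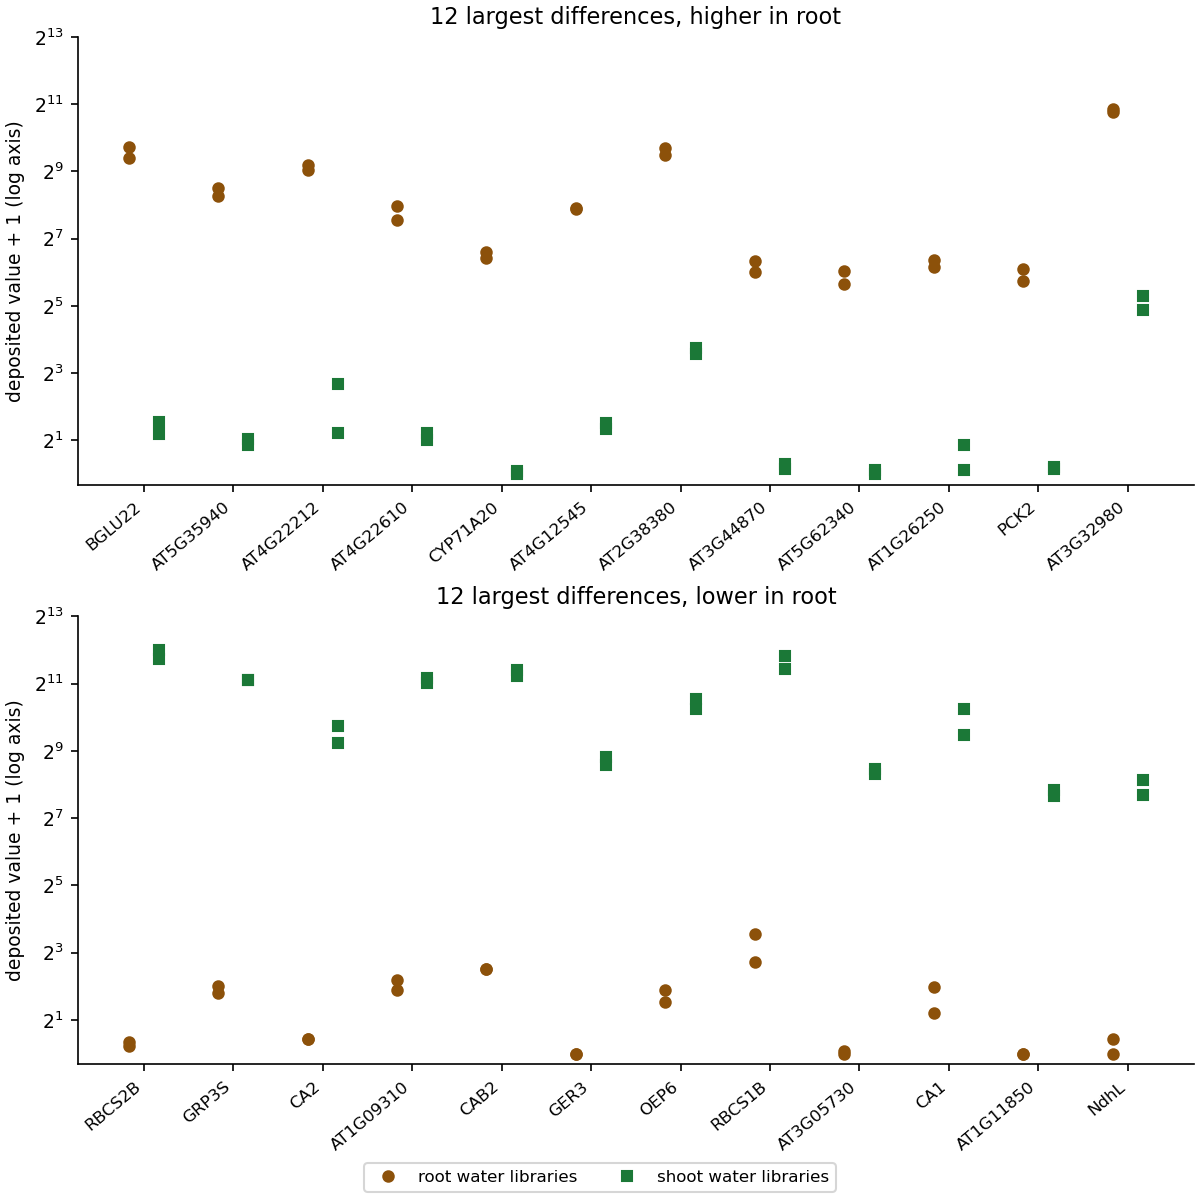
The deposited value + 1 in each library, on a log2 axis, for the 12 called genes with the largest excess in root (upper panel) and the 12 with the largest deficit in root (lower panel). Root libraries are circles and shoot libraries squares. For every gene drawn, the gap between the organs exceeds the spread within each organ.

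Genes of the endodermal barrier were higher in root without exception among those listed. All 5 of 5 tested members of the Casparian strip and suberin list were called higher, against 35.4% of all tested genes. Their median difference was 3.87, against 0.48 over all tested genes. CASP1, CASP2, ESB1 and PER64 among them were the root markers used above. ESB1 is counted again among the dirigent genes below, and PER64 among the peroxidases. CASP1, a membrane scaffold protein of the strip, had 75.28 and 67.34 in root, against 0.09 and 1.22 in shoot (5.54 ± 0.39, adjusted p = 0.0012). CASP2 had 15.03 and 14.81 in root, against 0.08 and 0.15 in shoot (3.84 ± 0.13). RWP1, which adds ferulate to suberin, had 81.82 and 89.16 in root, against 4.07 and 3.8 in shoot. ESB1, a dirigent protein needed to place the lignin, and the peroxidase PER64 were higher by 3.48 and 3.87.

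Lignin-related genes followed the barrier. Of 20 tested laccase, lignin and dirigent genes, 18 were higher in root, 1 was lower (the dirigent-like gene AT1G22900, at -0.93) and CCOAMT did not pass. Their median difference was 3.18, against 0.48 over all tested genes, of which 35.4% were higher in root and 18.6% lower. Laccases oxidise lignin precursors in the wall, and all 7 listed ones passed: LAC3 had 28.92 and 38.24 in root, against 0.63 and 1.11 in shoot (4.21 ± 0.23), and LAC2, the least different, was higher by 1.58. PAL1, which opens the phenylpropanoid pathway, had 415.14 and 275.92 in root, against 91.0 and 73.96 in shoot (2.03 ± 0.29). The dirigent-like genes AT3G24020 and AT3G55230 were higher by 5.03 and 4.89.

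Class III peroxidases are wall and vacuole enzymes that can couple lignin units. Of 18 tested, 11 were higher in root and 1 lower (AT1G71695), against 35.4% and 18.6% of all tested genes. The values of the 18 summed to 3741.1 and 3790.0 in root, against 338.4 and 417.7 in shoot. AT3G32980 held the greatest part of the root sum, with 1721.5 and 1850.56, against 28.1 and 38.56 in shoot. AT2G38380 had 708.99 and 821.41 in root, against 10.76 and 12.39 in shoot (5.93 ± 0.21). Near-identical copies exist in this family and may share reads. AT5G39580 shows the limit set by the shoot pair: its 133.22 and 82.69 in root lay above 8.54 and 37.73 in shoot, yet its difference of 2.46 ± 0.78 did not pass (adjusted p = 0.0603).

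Of 15 tested expansin and xyloglucan endotransglucosylase genes, 9 were higher in root and 3 lower, with a median of 1.65. Among all tested genes 35.4% were higher and 18.6% lower, with a median of 0.48. EXPA14 had 48.87 and 56.24 in root, against 1.11 and 1.01 in shoot (4.70 ± 0.15), and EXPA17 had 16.76 and 14.86 in root, against 0.35 and 0.14 in shoot. On the other side EXPA8 had 1.35 and 1.68 in root, against 12.86 and 13.51 in shoot, a difference of -2.50 ± 0.14. EXPA6 and XTH28 were lower in root by smaller amounts. EXPA1, with 24.51 and 48.07 in root, against 100.09 and 39.96 in shoot, did not pass.

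Terpene synthesis was represented by 3 tested genes. THAS1, the thalianol synthase of a root triterpene gene cluster, had 54.37 and 53.11 in root, against 0.64 and 0.53 in shoot (5.11 ± 0.13). AT4G20210, a terpenoid cyclase family gene, had 7.27 and 6.77 in root, against 0 and 0.22 in shoot. TPS04, which makes a volatile of wounded leaves, went the other way with 0.6 and 0.12 in root, against 6.43 and 3.42 in shoot (-2.10 ± 0.35). No table value of 0 is read here as absence.

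**Figure D3:**
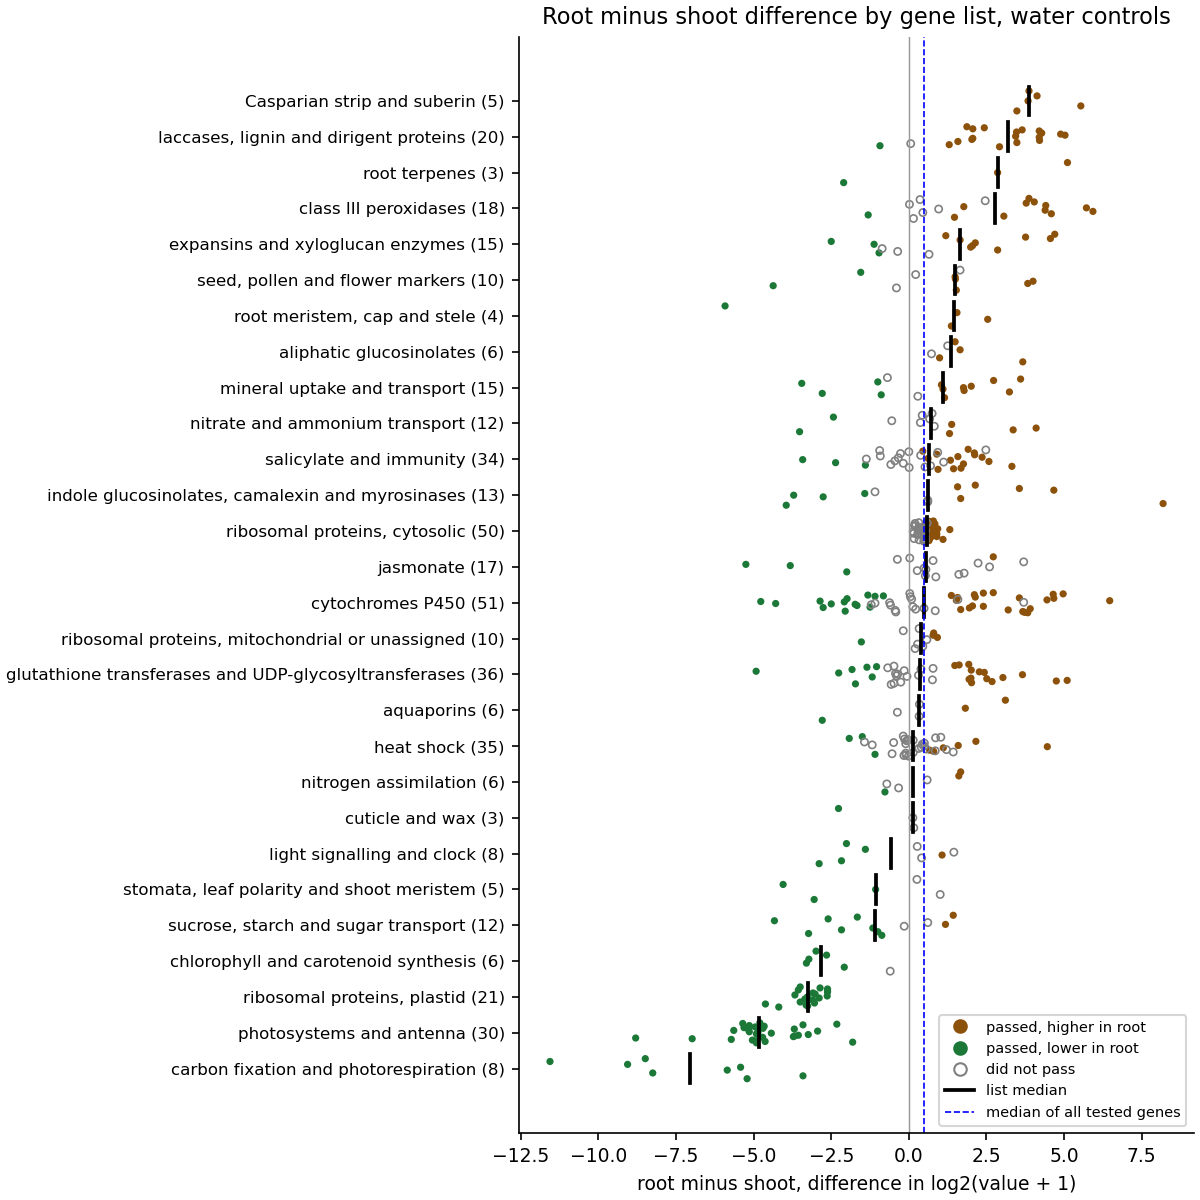
Root minus shoot differences in log2(value + 1) for every tested member of the gene lists with at least 3 tested members, ordered by list median. Filled points passed the test (brown higher in root, green lower in root), open points did not, black bars are list medians, and the dashed line is the median of all tested genes at 0.48. Carbon fixation and photosystem genes sit at one end with medians of -7.05 and -4.83, and Casparian strip and lignin genes at the other with 3.87 and 3.18.

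Mineral transporters were higher in root in 9 of 15 tested genes and lower in 4, against 35.4% and 18.6% of all tested genes. HAK5, the high-affinity potassium uptake carrier, had 18.13 and 11.26 in root, against 0.24 and 0.28 in shoot (3.60 ± 0.26, adjusted p = 0.00125). HMA4, which loads zinc into the xylem, had 60.3 and 65.95 in root, against 6.61 and 5.07 in shoot (3.24 ± 0.19). Other genes that act at the xylem were also higher: HKT1, which withdraws sodium from it, by 2.73, FRD3, which exports citrate for iron movement, by 2.01, and SKOR, a potassium release channel, by 1.76. The 4 that were lower in root were the sulfate transporters SULTR3;1 and AST56, the phosphate transporter PHT1;7 and NIP6;1, a boric acid channel. SULTR3;1 had 2.24 and 1.38 in root, against 29.58 and 28.98 in shoot (-3.45 ± 0.20). The nicotianamine synthases NAS1 and NAS4 did not pass, with differences of -0.69 ± 0.38 and 0.29 ± 0.22.

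Of 12 tested nitrate and ammonium transport genes, 4 were higher in root and 2 lower, close to the shares of all tested genes (35.4% higher and 18.6% lower), so the list as a whole did not stand out and single transporters are described. NRT1.5, which loads nitrate into the root xylem, had 229.34 and 356.94 in root, against 19.01 and 13.05 in shoot (4.10 ± 0.34, adjusted p = 0.00177). NRT1.9, a nitrate carrier of the root phloem, had 50.98 and 68.01 in root, against 5.4 and 4.29 in shoot (3.36 ± 0.23). AMT1;1, an ammonium uptake transporter, had 23.7 and 24.65 in root, against 151.25 and 120.11 in shoot (-2.43 ± 0.22), and NRT2.5, a high-affinity nitrate transporter, had 0.08 and 0.12 in root, against 11.01 and 12.27 in shoot (-3.52 ± 0.14). NRT1.8 did not pass: the root libraries themselves were apart at 102.27 and 34.62, against 55.67 and 34.85 in shoot.

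Of 6 tested nitrogen assimilation genes and of 6 tested aquaporins, 2 were higher in root, 1 was lower and 3 did not pass, again close to the 35.4% and 18.6% of all tested genes. GDH2, a glutamate dehydrogenase, had 992.56 and 934.2 in root, against 346.06 and 261.59 in shoot (1.67 ± 0.20), and the asparagine synthetase ASN1 was higher by 1.61. NIA2, the main nitrate reductase, was lower at 348.21 and 458.87 in root, against 713.98 and 650.0 in shoot (-0.77 ± 0.20, adjusted p = 0.0378). That call was lost in 6 of the alternatives, with adjusted p between 0.0772 and 0.152: equal totals, quantile normalization, the replicate block, and without either root library or the first shoot library. Among aquaporins, PIP2;4 had 35.18 and 30.19 in root, against 2.75 and 3.01 in shoot (3.11 ± 0.15), and PIP1A was higher by 1.82. NIP6;1 was the lower member, with 2.51 and 2.62 in root, against 23.06 and 24.13 in shoot (-2.79 ± 0.13). The abundant PIP1B did not pass, with 478.97 and 569.74 in root, against 410.15 and 418.95 in shoot.

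Photosynthesis genes made the largest contrast. All 30 photosystem and antenna genes and all 8 carbon fixation and photorespiration genes tested were lower in root, against 18.6% of all tested genes. Their medians were -4.83 and -7.05, against 0.48 over all tested genes. Together these 38 genes held 0.519% and 0.722% of the listed total in root, against 21.9% and 18.1% in shoot. The photosystem, antenna and Rubisco small subunit genes among them were the shoot markers used above. RBCS2B, a Rubisco small subunit, had the largest difference of any gene, with 0.18 and 0.28 in root, against 4052.34 and 3408.98 in shoot (-11.56 ± 0.21, adjusted p = 0.000491). Its neighbour RBCS1B had 5.62 and 10.66 in root, against 3586.95 and 2792.69 in shoot. The 2 genes are near-identical copies whose reads may have been shared between them.

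Among the other genes with the largest deficits in root, GRP3S, a glycine-rich protein, had 3.01 and 2.48 in root, against 2192.74 and 2219.66 in shoot (-9.21 ± 0.20). OEP6, a protein of the chloroplast outer envelope, had 2.73 and 1.88 in root, against 1498.2 and 1200.56 in shoot, and NdhL, of the chloroplast NDH complex, had 0 and 0.34 in root, against 280.3 and 204.74 in shoot. AT1G09310 and the defensin-like gene AT3G05730 differed by -9.04 and -8.35. Not all of the largest deficits were thus in photosynthesis genes by name. The highest level in shoot belonged to AT5G42530, an uncharacterized protein, with 38.13 and 37.11 in root, against 5550.29 and 4680.63 in shoot.

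The carbonic anhydrases CA2 and CA1, which convert bicarbonate in leaves, were lower in root, with differences of -9.06 and -8.25. CA2 had 0.34 and 0.36 in root, against 862.39 and 596.59 in shoot. The antenna gene CAB2 had 4.72 and 4.76 in root, against 2417.25 and 2715.53 in shoot (-8.80 ± 0.19). CAB3, a near-identical copy, had 24.8 and 31.98 in root, against 3391.49 and 3992.29 in shoot, and the labels do not say how reads were split between them.

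The photosynthesis genes were not uniformly low in root. PSBX, a small photosystem II subunit, still had 148.73 and 179.05 in root, against 3542.04 and 3531.54 in shoot (-4.43 ± 0.15). LHB1B2, an antenna protein of photosystem II, had 90.28 and 165.28 in root, against 4530.18 and 4144.11 in shoot. The smallest differences among the 30 belonged to LPA19, an assembly factor of photosystem II, at -1.81, and to PPD5, a PsbP domain protein, at -2.32. LPA19 was also low in shoot next to the antenna genes on this per-length scale, with 5.88 and 7.23 in root, against 27.99 and 22.97 in shoot.

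Pigment genes followed with smaller differences. Of 6 tested genes of chlorophyll and carotenoid synthesis, 5 were lower in root, against 18.6% of all tested genes. GUN4 (-3.30), CHLI1 (-3.22), PORB (-2.99) and CHLM (-2.65), all in the magnesium branch that ends in chlorophyll, led the list. HEMA1, which acts before the heme and chlorophyll branches part, did not pass on the deposited scale, with 137.46 and 109.64 in root, against 179.34 and 193.47 in shoot (-0.60 ± 0.21, adjusted p = 0.0801). It passed at equal medians (-1.0, adjusted p = 0.0257).

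The promoters of the genes at both ends are shown because members of these groups differed together. Each window is 300 bases of RefSeq assembly TAIR10.1, from 250 before to 50 after the annotated gene start, read 5′ to 3′ on the gene's strand, and the coordinates are those of that assembly since no source used here states the authors' build. Capitals mark any match, on either strand, to CACGTG (the G-box), GATAAG (the I-box), AAAATATCT (the evening element), TATAAA, AAACCCTA (the telo-box) and TGGGCC (site II). Matches may overlap, and TGGGCC can overlap its own reverse complement. BGLU22 (chr1:24709947-24710246, minus strand) and RBCS2B (chr5:15382022-15382321, minus strand) had the largest differences in each direction. CAB2 (chr1:10475920-10476219, minus strand) had the largest among antenna genes, and PSBTN (chr3:7377177-7377476, minus strand), a photosystem II subunit, the largest among photosystem genes whose window holds both CACGTG and GATAAG.
BGLU22: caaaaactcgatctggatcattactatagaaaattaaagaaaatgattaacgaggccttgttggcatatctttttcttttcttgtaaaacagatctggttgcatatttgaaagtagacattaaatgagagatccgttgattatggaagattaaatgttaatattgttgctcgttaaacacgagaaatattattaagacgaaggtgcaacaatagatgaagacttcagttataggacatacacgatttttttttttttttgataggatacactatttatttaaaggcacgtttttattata
RBCS2B: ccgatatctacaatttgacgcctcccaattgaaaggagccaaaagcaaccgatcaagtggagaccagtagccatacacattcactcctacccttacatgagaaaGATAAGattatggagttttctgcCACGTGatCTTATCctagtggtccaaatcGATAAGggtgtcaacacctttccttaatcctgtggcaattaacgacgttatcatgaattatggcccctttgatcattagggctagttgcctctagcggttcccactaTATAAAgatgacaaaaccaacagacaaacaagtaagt
CAB2: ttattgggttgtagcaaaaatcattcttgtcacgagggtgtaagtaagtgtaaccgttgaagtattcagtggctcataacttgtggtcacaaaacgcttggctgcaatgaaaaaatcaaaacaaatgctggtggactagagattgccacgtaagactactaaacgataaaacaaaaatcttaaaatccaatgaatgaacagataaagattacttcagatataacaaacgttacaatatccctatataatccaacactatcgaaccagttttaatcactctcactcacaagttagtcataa
PSBTN: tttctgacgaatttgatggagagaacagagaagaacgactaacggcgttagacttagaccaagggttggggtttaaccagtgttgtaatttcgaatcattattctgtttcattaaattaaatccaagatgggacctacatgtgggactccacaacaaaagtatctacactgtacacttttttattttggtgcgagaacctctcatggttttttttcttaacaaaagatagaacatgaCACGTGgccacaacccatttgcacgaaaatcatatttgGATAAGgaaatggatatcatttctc

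The RBCS2B window holds GATAAG more than once, a single CACGTG between the copies and TATAAA just after the annotated gene start. None of the 6 strings occurs in the windows of BGLU22 or CAB2. GATAAG was found in 46.7% of the 30 photosystem and antenna promoters, 17.7% of the promoters of tested genes and 14.6% of the 27443 protein-coding promoters of the assembly. CACGTG was found in 26.7%, 10.3% and 7.68% of the same sets. Among genes called at a log2 difference of 1 or more, GATAAG was found in 16.6% of promoters higher in root and in 25.2% of those lower in root. CACGTG showed no such split, with 9.58% of those higher and 9.14% of those lower, against 10.3% of tested genes. These are descriptions with no test, and a match is not evidence that a factor binds.

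Among ribosomal protein genes, those of the plastid stood on the shoot side. All 21 tested genes classed here as plastid were lower in root, against 18.6% of all tested genes. Their differences lay between -4.62 and -2.62, with a median of -3.26. PSRP3/1, a plastid-specific ribosomal protein, had 8.62 and 11.61 in root, against 312.15 and 233.24 in shoot (-4.62 ± 0.27, adjusted p = 0.000817). The plastid proteins emb2394 (an L6 protein) and RPL15 were lower, at -4.19 and -3.67. All 21 stayed called in every alternative tried.

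The 50 cytosolic ribosomal protein genes lay slightly on the other side. On the deposited scale 27 were higher in root, none was lower and 23 did not pass. Among all tested genes 35.4% were higher and 18.6% lower. The median difference of the 50 was 0.59, close to the 0.48 of all tested genes. At equal medians 1 was called higher and none lower, where 782 and 774 of all 3561 genes were. Their median was 0.19 there, against 0.11 over all tested genes. RPL23AB had 280.41 and 270.7 in root, against 142.69 and 144.66 in shoot (0.93 ± 0.17, adjusted p = 0.0144), and at equal medians its adjusted p was 0.117. AT3G44590, an acidic protein of the large subunit, had 101.4 and 113.92 in root, against 42.0 and 43.17 in shoot (1.32 ± 0.19), and was the gene still called at equal medians, though not without either root library (adjusted p = 0.0738 and 0.0874). The count of 27 also fell to 0 without either root library. Another 10 tested ribosomal protein genes were classed here as mitochondrial or left without a compartment, so plastid proteins may be among them. Of these 10, 3 were higher in root, 1 was lower and 6 did not pass. These counts lay near the 35.4% and 18.6% of all tested genes, and at equal medians none was higher. The lower one, RFC3, had 14.7 and 15.12 in root, against 46.21 and 43.66 in shoot (-1.53 ± 0.16). Its call was lost without either root library.

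The 2 kinds of ribosomal promoter are shown by the member with the largest difference whose window holds the strings frequent in its group: emb2394 (chr1:1503804-1504103, minus strand) and AT2G40205, an L41 gene of the cytosolic ribosome (chr2:16792573-16792872, minus strand). Capitals mark the same 6 strings.
emb2394: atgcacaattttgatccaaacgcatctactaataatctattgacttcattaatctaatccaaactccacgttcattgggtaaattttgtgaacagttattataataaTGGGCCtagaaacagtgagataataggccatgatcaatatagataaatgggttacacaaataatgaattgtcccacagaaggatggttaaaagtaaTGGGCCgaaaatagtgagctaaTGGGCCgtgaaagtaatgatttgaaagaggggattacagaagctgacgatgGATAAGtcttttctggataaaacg
AT2G40205: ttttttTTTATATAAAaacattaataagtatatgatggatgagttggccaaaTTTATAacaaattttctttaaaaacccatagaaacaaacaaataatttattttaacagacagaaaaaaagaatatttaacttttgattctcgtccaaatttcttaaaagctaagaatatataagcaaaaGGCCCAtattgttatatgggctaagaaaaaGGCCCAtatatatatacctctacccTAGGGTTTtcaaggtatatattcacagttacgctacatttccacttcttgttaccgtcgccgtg

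The emb2394 window holds 3 copies of TGGGCC and a GATAAG just after the annotated gene start. The AT2G40205 window holds site II repeats upstream of a telo-box and TATAAA further away from the gene start. TGGGCC was found in 76.0% and AAACCCTA in 54.0% of the 50 cytosolic ribosomal promoters, against 15.5% and 6.22% of all promoters. Plastid ribosomal promoters held TGGGCC in 38.1%, AAACCCTA in 9.52% and GATAAG in 61.9% of 21. TGGGCC was in none of the 20 laccase, lignin and dirigent promoters and in none of the 18 peroxidase promoters, which says only that this string is not in these windows.

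Glucosinolates are sulfur-rich defence compounds of this plant family, and enzymes called myrosinases release their toxic products. All 6 tested genes of aliphatic glucosinolate synthesis had positive differences and 4 passed as higher in root, against 35.4% of all tested genes. CYP79F2, which starts the long-chain branch, had 107.36 and 162.3 in root, against 10.31 and 8.66 in shoot (3.67 ± 0.28, adjusted p = 0.00145). BCAT4, which begins methionine chain elongation, had 489.63 and 599.39 in root, against 203.9 and 144.41 in shoot (1.65 ± 0.26). SOT17, a sulfotransferase of the last core step, passed with all 4 libraries on the deposited scale (0.99 ± 0.26), but not at equal medians (adjusted p = 0.201), under quantile normalization (0.114), with the replicate block (0.112), without either root library (0.133 and 0.208) or without the second shoot library (0.0593).

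Of 13 tested genes of indole glucosinolates, camalexin and myrosinases, 6 were higher in root and 4 lower. Among all tested genes the shares were 35.4% and 18.6%. CYP79B2 and CYP79B3, which convert tryptophan at the entry, were higher by 2.14 and 1.67. CYP81F3, which modifies the indole ring, had 48.89 and 28.22 in root, against 0.51 and 0.5 in shoot. Its relative CYP81F4 had 407.65 and 410.39 in root, against 47.45 and 23.92 in shoot. The beta-glucosidases divided as well. BGLU22 was the highest in root relative to shoot, while BGLU18 had 41.67 and 34.65 in root, against 894.74 and 402.75 in shoot (-3.95 ± 0.45), and PEN2 was lower, at -1.42. CYP71A13, a camalexin enzyme, had 0.1 and 0.16 in root, against 7.71 and 5.7 in shoot. PAD3, the last camalexin enzyme, did not pass on the deposited scale (-1.09 ± 0.36, adjusted p = 0.0676). It was called lower in root at equal medians (-1.48, adjusted p = 0.0379). The list then had 6 genes higher and 5 lower, where 782 and 774 of all 3561 genes were.

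Over all tested genes 35.4% were higher in root and 18.6% lower, and the large enzyme families are read against those shares. Of 51 tested cytochrome P450 genes, 22 were higher in root and 14 lower on the deposited scale. Of 36 tested glutathione transferase and UDP-glycosyltransferase genes, 15 were higher and 7 lower, close to those shares on that scale. At equal medians 21 of the P450 genes were higher and 19 lower. The other list then had 15 higher and 10 lower. Of all 3561 genes 782 were higher and 774 lower there, so neither list was close to the shares at equal medians. CYP71A16 had 31.53 and 31.76 in root, against 0.04 and 0.04 in shoot (4.97 ± 0.12), while CYP71B5 had 0.17 and 0.27 in root, against 22.44 and 46.42 in shoot (-4.77 ± 0.38). DOGT1, a glucosyltransferase, had 0.95 and 1.06 in root, against 78.46 and 45.3 in shoot (-4.92 ± 0.31). GSTU26 had 210.78 and 156.84 in root, against 5.13 and 3.65 in shoot (5.10 ± 0.26). GSTU19 and GSTF8, the most abundant glutathione transferases that did not pass, differed by -0.06 ± 0.16 and -0.15 ± 0.23.

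The tandem run of tau glutathione transferases on chromosome 2 had organ differences of both signs among neighbours. GSTU6 had 118.52 and 89.49 in root, against 7.12 and 7.28 in shoot (3.66 ± 0.22). GSTU2 and GSTU1, at one end of the run, were higher by 2.43 and 2.27. Their neighbour GSTU3 had 4.34 and 3.53 in root, against 35.66 and 14.13 in shoot (-2.26 ± 0.48, adjusted p = 0.0223), and GSTU7, GSTU5 and GSTU4 did not pass. Related copies may share reads, which could move values among them.

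In many jasmonate and immune genes the shoot pair itself was apart. In 9 of 17 tested jasmonate genes and 9 of 34 tested salicylate and immunity genes the second shoot library was more than 2-fold above the first. Over all 3561 tested genes, 553 had a shoot pair over 2-fold apart in value + 1, in either direction. The share in this direction alone was not counted. JAZ1, a repressor of jasmonate signalling, had 899.85 and 718.01 in root, against 157.45 and 435.2 in shoot (1.61 ± 0.55, adjusted p = 0.0723). WRKY40 had 611.07 and 558.61 in root, against 160.49 and 806.47 in shoot, and WRKY33 had 202.76 and 205.77 in root, against 124.16 and 430.13 in shoot. Neither passed, and the shoot libraries lay on both sides of the root libraries. The summed values of the immunity list were 2474.6 and 2076.5 in root, against 1185.3 and 3025.3 in shoot.

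Of the 17 jasmonate genes, 1 was higher in root and 3 lower, against 35.4% and 18.6% of all tested genes. Without the second shoot library 10 were higher and 4 lower, and without the first 5 were higher and 5 lower. The 3 called lower with both shoot libraries were AOC2 and AOC1, allene oxide cyclases of jasmonate synthesis whose reads may be shared between near-identical copies, and TIFY7, a JAZ family repressor. They numbered 2 without either root library. AOC2 had 12.52 and 10.39 in root, against 590.29 and 376.8 in shoot (-5.25 ± 0.31). CYP94B1, which inactivates jasmonate by oxidation, was higher in root by 2.72 ± 0.28.

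Among 34 tested salicylate and immunity genes, 15 were higher in root and 3 lower, against 35.4% and 18.6% of all tested genes. At equal medians 9 were higher and 4 lower, where 782 and 774 of all 3561 genes were, so the count of higher genes lay near the share of all genes there. Without either root library 8 were higher. WRKY70 had 15.05 and 12.18 in root, against 137.91 and 173.55 in shoot (-3.42 ± 0.24, adjusted p = 0.00115). WRKY36 had 30.97 and 24.19 in root, against 1.75 and 1.92 in shoot. WRKY23 had 22.63 and 23.29 in root, against 2.83 and 3.2 in shoot. In the heat shock list 6 of 35 tested genes were higher in root and 3 lower, against 35.4% and 18.6% of all tested genes. The other 26 did not pass, and at equal medians 3 were higher and 4 lower. A first shoot library more than 2-fold above the second was found for 12 of the 35, a direction not counted over all tested genes. Without the first shoot library 14 were higher and 4 lower, without the second 8 and 10, and without either root library 2 and 0. Its largest member, the heat shock factor HSFA6B, had 44.16 and 38.02 in root, against 0.4 and 1.59 in shoot (4.46 ± 0.35).

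**Figure D4:**
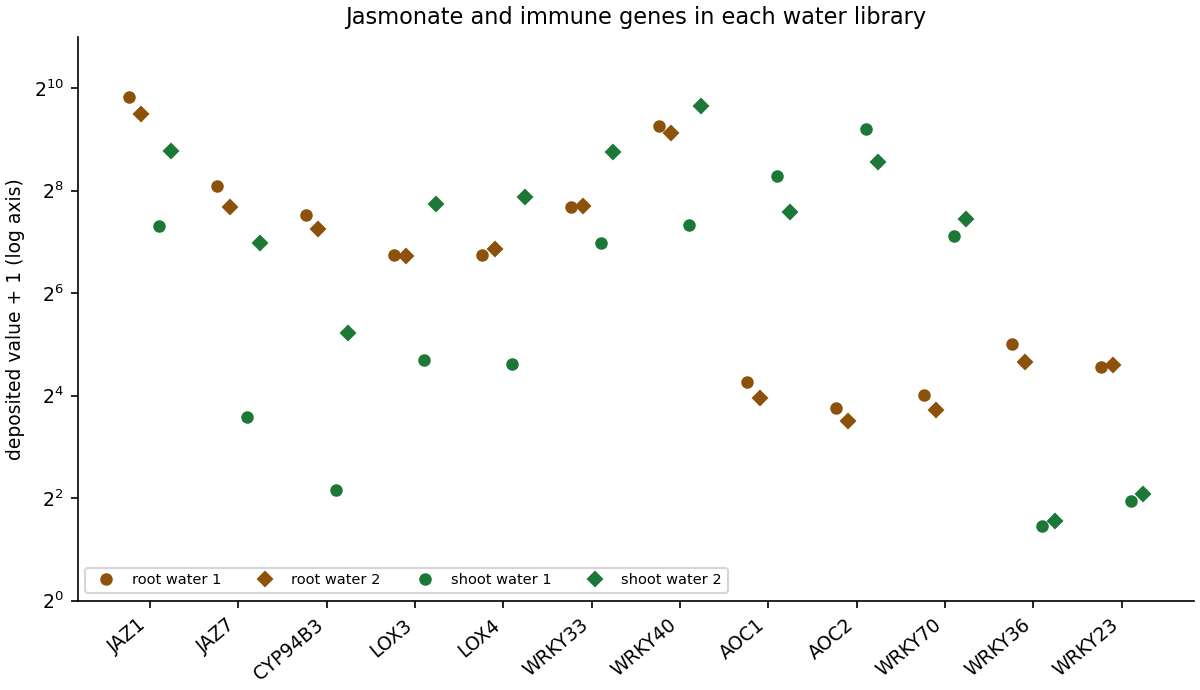
The deposited value + 1 in each water library, on a log2 axis, for 12 jasmonate and immune genes, chosen after their values were seen. For JAZ1 to WRKY40 the second shoot library lies far above the first, and for AOC1, AOC2, WRKY70, WRKY36 and WRKY23 the organs are apart and the shoot libraries close.

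Sugar and shoot identity genes were mostly lower in root. Of 12 tested genes of sucrose, starch and sugar transport, 8 were lower and 2 higher, against 18.6% and 35.4% of all tested genes. At equal medians the 2 were no longer called. SWEET11, which exports sucrose for phloem loading, had 5.46 and 6.13 in root, against 147.64 and 123.59 in shoot (-4.33 ± 0.19), and SUC2, the phloem loading carrier, was lower, at -1.0. The stomatal signal STOMAGEN had 0.41 and 0.35 in root, against 21.07 and 22.57 in shoot (-4.05 ± 0.13). STM, which keeps the shoot meristem, had 0.54 and 0.36 in root, against 11.16 and 10.89 in shoot (-3.05 ± 0.14), and TCP4, a leaf growth factor, was lower, at -1.07. OST1 and GRF3, members of the same list, did not pass. Of 8 light and clock genes, 4 were lower, against 18.6% of all tested genes, led by BBX15 (-2.89) and STH (-2.17). ELIP2 was higher by 1.07 on the deposited scale alone, since at equal medians no gene of the list was higher.

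Root meristem and stele genes were few. BHLH32 had 19.45 and 21.68 in root, against 3.18 and 2.29 in shoot (2.54 ± 0.18). SHR, which sets the endodermal layer, had 14.89 and 14.08 in root, against 4.31 and 4.28 in shoot, and WOX5, a factor of the quiescent centre, had 1.96 and 1.93 in root, against 0.29 and 0 in shoot, a call lost under quantile normalization (adjusted p = 0.0683). RGF9, annotated as a root meristem growth factor, went against its name: it was listed at 0 in both root libraries, and had 75.79 and 47.04 in shoot. SHV3, the 1 tested gene of the root hair list, did not pass.

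Some genes were listed at 0 in one organ, for which no fold is given. Both shoot libraries were at 0 for 30 genes and both root libraries for 24. The highest of the first kind was AT5G46900, a lipid-transfer family gene with 29.56 and 30.23 in root, followed by the zinc finger gene AT5G43540 with 13.18 and 15.18. The second kind was led by GER3, a germin, with 451.44 and 384.82 in shoot, and AT1G11850 with 199.77 and 226.23, ahead of RGF9. CRR7, a chloroplast NDH complex factor, had 21.3 and 17.51 in shoot.

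Genes of seed, pollen and flower were looked at as markers of other tissue. Of 10 tested, 5 were higher in root and 2 lower, against 35.4% and 18.6% of all tested genes. The list summed to 1868.77 and 1651.01 in root, against 3105.25 and 3796.15 in shoot. SAG21 made up most of the sum, with 1135.53 and 1031.16 in root, against 2920.23 and 3442.21 in shoot, and its annotation names it for senescence. AGL44, higher in root by 4.0 ± 0.14, is known as the root nitrate-response factor ANR1 and not as a flower gene. EM1, a seed protein, had 2.87 and 2.77 in root, against 0 and 0.85 in shoot. The part of such tissue in the results was not tested.

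The rule's limit on low values fell between genes that differed little in level. Just inside it were AT4G27290, WAKL1 and PHT1;7 with means over the 4 libraries of 1.0025, 1.005 and 1.0075. AT1G51010, GolS7 and PSK6 lay just outside with 0.9875, 0.97 and 0.9675.

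The same organ difference was read in the 2,5-D libraries, which share no library with the water groups. Of the 1923 genes called in water, 1729 (89.9%) had a difference of the same sign there, as did 1446 of the 1468 genes called at a difference of 1 or more and all 475 called at 3 or more. Over all tested genes, called or not, the share was 76.0%. RBCS2B differed by -10.78 in the 2,5-D libraries and BGLU22 by 7.51. All 50 cytosolic ribosomal genes were positive there with a median of 0.71, against a median of 0.15 over all tested genes in those libraries. The 115 genes that were higher in root by at least 4 under 2,5-D were all higher in root in water too, and the 96 that were lower by as much were all lower.

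The 22 genes called by at least 1 in water with the other sign under 2,5-D had 2,5-D differences between -0.39 and 1.84. GSTU3 had 20.62 and 20.22 in 2,5-D roots, against 18.62 and 20.36 in 2,5-D shoots, a difference of 0.07, and GSTU20 one of 0.03. IGMT3, an indole glucosinolate methyltransferase, was higher in root by 1.94 in water and differed by -0.14 under 2,5-D. Small heat shock genes were among those whose organs did not overlap under 2,5-D. AT5G37670 had 7.78 and 9.01 in 2,5-D roots, against 2.54 and 2.34 in 2,5-D shoots. In water it had 0.83 and 0.66 in root, against 9.28 and 3.23 in shoot (-1.92 ± 0.48), so its shoot pair was apart. HSP18.2 had 20.24 and 16.75 in 2,5-D roots, against 13.92 and 12.68 in 2,5-D shoots. Whether the organ difference itself differed between water and 2,5-D was not tested.

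**Figure D5:**
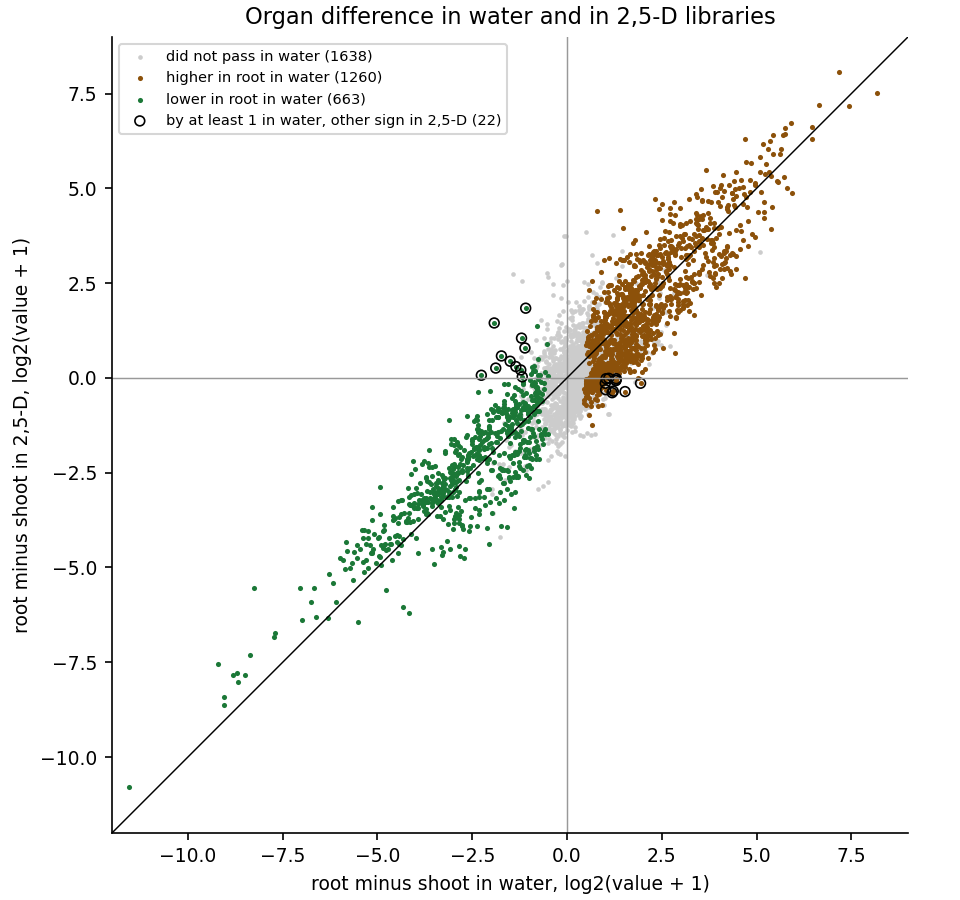
Root minus shoot difference in log2(value + 1) in the 2,5-D libraries (vertical axis) against that in the water libraries (horizontal axis) for the 3561 tested genes, coloured by the call in water, with the line of equal differences. The 22 circled genes were called by at least 1 in water and had the other sign under 2,5-D; all 475 genes called by at least 3 kept their sign.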

How the data were processed

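Total RNA of Arabidopsis Col-0 roots and shoots was sequenced on a DNBSEQ platform, per the labels, and reads were aligned with HISAT2 2.0.4, per the submitters' processing notes. The counting program, genome build and annotation are not stated there. The deposited values are an expression signal that the authors normalized and left without a named unit, and they hold no counts. Root and shoot stand in separate deposited tables, joined here on the gene identifier (3691 of 3691 matched the RefSeq locus tags of TAIR10.1). Both deposited 2,5-D shoot columns carry the same replicate name, so their numbers are names only.

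Values were taken as log2(value + 1), genes averaging under 1 across the 4 water libraries were dropped, and limma 3.58.1 (R 4.3.3, empirical Bayes with trend) compared root with shoot, with Benjamini-Hochberg adjustment over all 3561 genes at 0.05. With 2 libraries against 2, the smallest exact two-sided permutation p for one gene is 0.333, so no such test was run. Simulated data had 3561 genes, of which 200 were changed, a far smaller share than the 54.0% called here. Of those set 1 log2 unit apart 28% were recovered, and of those set 2 apart 71%. Among the 106 calls 7 were false. These rates hold for that smaller share of changed genes only.

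The scale was estimated from the steps of low values, up to 8 reads. The 29 gene lists were matched by symbol or product name, and 37 genes were left out because their product belonged to another group. Named genes were the 12 largest called differences in each direction, up to 8 genes at 0 in one organ, the 5 highest levels in each organ, and from each list up to 4 called genes with the largest difference and up to 2 others with the highest mean. The genes and lists were chosen with earlier results of these data known. Alternatives were another pseudocount, other filters, equal medians, equal totals, quantile normalization, no trend, all 8 libraries, a replicate block and each library left out. Tables were handled in Python 3.11.15 (pandas 2.3.3) and drawn with matplotlib 3.10.9.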

Additional observations from a re-analysis of the deposited data

Results flagged for a closer look

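In 17 of the named genes and of the 22 genes with the other sign under 2,5-D, the root and shoot libraries lay on opposite sides of each other in 2,5-D and in water. Over all tested genes this held for 411 of 3561 (11.5%), and the listed genes had been picked with these libraries. The difference between the conditions was not tested. Values are root minus shoot in log2(value + 1).

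In 9 of them root was below shoot under 2,5-D and above it in water. AGL16, a MADS-box factor, differed by -0.85 under 2,5-D and 0.22 in water. SOT16, a sulfotransferase of indole glucosinolates, stood at -0.70 under 2,5-D and 0.61 in water. SHD, an endoplasmic reticulum chaperone, had a difference of -0.44 under 2,5-D and 0.50 in water. XIP1, a receptor kinase, differed by -0.39 under 2,5-D and 1.19 in water. ABCC11, an ABC transporter, stood at -0.36 under 2,5-D and 1.53 in water. AT3G10190, a calcium-binding protein, had a difference of -0.35 under 2,5-D and 1.22 in water. RXF12, a xylanase family protein, differed by -0.31 under 2,5-D and 1.02 in water. AT1G67720, a receptor-like kinase, stood at -0.14 under 2,5-D and 1.01 in water. SUR1, a C-S lyase of glucosinolate synthesis, had a difference of -0.11 under 2,5-D and 0.61 in water.

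In the other 8 root was above shoot under 2,5-D and below it in water. NAC6, a NAC factor, differed by 0.21 under 2,5-D and -1.22 in water. UGT73B2, a glycosyltransferase, stood at 0.30 under 2,5-D and -1.35 in water. HSP18.2, a small heat shock protein, had a difference of 0.44 under 2,5-D and -1.50 in water. AT5G49700, an AT-hook protein, differed by 0.58 under 2,5-D and -1.73 in water. M10, a late embryogenesis abundant protein, stood at 0.79 under 2,5-D and -1.11 in water. AT5G16010, a steroid dehydrogenase family protein, had a difference of 1.05 under 2,5-D and -1.20 in water. AT5G37670, a small heat shock protein, differed by 1.45 under 2,5-D and -1.92 in water. AT1G54050, another small heat shock protein, stood at 1.84 under 2,5-D and -1.09 in water. Within that group, 3 were small heat shock proteins.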

How the results depend on the processing

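Leaving out each library in turn gave 953 to 2213 calls in all (539 to 1517 higher in root, 414 to 765 lower), 535 to 1192 higher and 414 to 665 lower at a difference of 1 or more, and, within the lists, 88 to 189 higher and 91 to 141 lower. The low ends came without a root library, which leaves the spread to the shoot pair. Calls higher in root, 1260 on the deposited scale, numbered 782 at equal medians and 832 under quantile normalization; the cause was not tested. With all 4 water libraries, calls in all lay between 1436 (the replicate block) and 1971 under the other settings, and all 8 libraries in 1 fit gave 2412. Replicate numbers did not pair the samples (correlation of deviations -0.358), which share only a number: with the replicate block 1436 genes were called, 861 higher in root and 575 lower. A crossed pairing, chosen after seeing the data, gave 1923, of which 1250 were higher. Of the 181 named genes tested, WRKY33 was the only one called in opposite directions: -0.18 with all libraries, -1.07 without the first shoot library and 0.71 without the second. Among them 22 calls were lost without the first root library and 24 without the second, ASN1, GDH2, BCAT4, TPS04, TIFY7, BBX15, RPL23AB, AT2G40205 and AT5G37670 in both cases, TCP4 in the first and BGLU18 in the second. Cytosolic ribosomal genes higher in root numbered 27, against 17 under quantile normalization, 3 with the replicate block, 1 at equal medians, 14 without the first shoot library and 0 without either root library. Carbon fixation (8), plastid ribosomal (21) and Casparian strip (5) genes were called in every setting, and photosystem genes (30) in every setting except without the first root library (29). At equal medians 1706 called genes kept their organ direction under 2,5-D, against 1729. Depth is unknown, so values near 1 read cannot be separated from 0.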
